A study of Mus musculus with 6 samples.

Results

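miR-221 and miR-222 are a pair of microRNAs made from neighbouring hairpins, and they were followed here through mouse CD8+ T cells primed in culture by either of 2 kinds of antigen-presenting cell. The members were chosen by name: every mouse-named assay without a star for either microRNA, in both the table of threshold cycles (Ct) and the table of dCt values. The rule found 2 assays, mmu-mir-222 and mmu-mir-221, among 350 microRNA assays. No star-strand or human-named assay of these hairpins was among them (0 assays), so 1 mature strand per hairpin was measured.

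The 6 samples were mouse CD8+ T cells with the pMel-1 transgene, a T cell receptor that recognises gp100, an antigen of melanoma, and all had spent 3 days in culture with priming cells. In 3 samples (DC-primed) the priming cells were dendritic cells grown from bone marrow and matured with lipopolysaccharide. In the other 3 (B cell-primed, the controls) they were splenic B cells carrying a gp100 peptide. Each of 3 rounds contributed a DC-primed sample and a control, called DC1 and B1, DC2 and B2, and DC3 and B3 after their round. The labels do not say whether the dendritic cells carried the peptide, whether priming cells were removed before RNA was extracted, or whether the rounds used different animals. The strain and age of the animals are not given in the labels either. p-values therefore measure the spread between samples, which may be technical.

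A microRNA is cut from a hairpin and guides the silencing complex to messenger RNAs that match its seed, the stretch from base 2 to base 8. miR-221 and miR-222 share their seed and are thought to be cut from a common primary transcript. They are known for lowering the cell cycle inhibitors p27 and p57 (genes Cdkn1b and Cdkn1c) and the receptor Kit, and their transcription responds to NF-kappaB and AP-1. T cell activation is known to raise them, and myeloid and other haematopoietic cells also make them.

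The mature sequences are shown because the seed they share, in capitals, and the bases after it, which differ, are what an assay has to tell apart. Both are from RefSeq (GRCm38.p6), on the minus strand of the X chromosome, miR-221-3p at chrX:19146307-19146329 and miR-222-3p at chrX:19146901-19146923.
miR-221-3p: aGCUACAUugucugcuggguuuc
miR-222-3p: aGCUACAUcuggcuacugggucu
Both are 23 bases long. The first 8 bases are identical, and set base against base without gaps 12 of the 23 positions differ, all after base 8. Their longest other shared stretch is 6 bases, CUGGGU, at positions 15 to 20 of miR-221-3p and 16 to 21 of miR-222-3p, counted from the 5′ end. Among 1679 mature mouse names listed by RefSeq, 3 hold this seed, the pair and miR-1928. The labels give no sequence of the forward primers, which decide how well the assays separate the pair.

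The hairpins, with the measured strand in capitals, show that in each case it is the 3′ arm.
Mir221: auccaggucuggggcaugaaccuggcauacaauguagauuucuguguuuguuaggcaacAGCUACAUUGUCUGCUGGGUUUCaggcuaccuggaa
Mir222: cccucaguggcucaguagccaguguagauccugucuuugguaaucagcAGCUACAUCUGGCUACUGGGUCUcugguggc
They lie 504 bases apart. No other gene of the RefSeq table overlaps them (0 genes), and the next in the direction of higher coordinates is the long non-coding RNA gene Gm14636.

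Samples differed in how early they amplified. The number the authors subtracted from each Ct was 26.18 cycles in DC1, 28.46 in DC2 and 30.46 in DC3, and between 26.35 and 27.63 in the controls. DC3 also had the fewest assays below Ct 35, 280 of 350 against 327 to 341 in the other 5 samples. The tests of the pair and the counts of each list are therefore given with and without DC3, while ranks, SDs and likeness are over all 6 samples. As markers of the labelled lymphoid cells, the haematopoietic miR-142-5p, miR-150, miR-155 and miR-181a were below Ct 35 in all 6 samples, while the Ct cell of miR-142-3p is blank for DC3. MicroRNAs do not mark CD8+ T cells alone.

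miR-222 crossed the threshold at cycle 21.63 in DC1, 27.03 in DC2 and 33.59 in DC3. The controls B1, B2 and B3 crossed at 28.14, 29.29 and 29.64. DC1 and DC2 were thus earlier, and DC3 later, than every control. Across the DC-primed samples the Ct of miR-222 spanned 11.96 cycles, while the authors' number for the same samples spanned 4.27.

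miR-221 crossed at 26.23 in DC1, 30.0 in DC2 and 31.71 in DC3, against 27.89, 28.95 and 28.84 for B1, B2 and B3. Here DC1 alone was earlier than every control, and DC2 and DC3 were later. Its Ct spanned 5.48 cycles over the DC-primed samples. Mean Ct did not separate the groups for either assay. The DC-primed minus B cell-primed difference was -1.61 cycles for miR-222 and 0.753 cycles for miR-221 (two-sided exact permutation p = 0.7 for each, 0.7 after Benjamini-Hochberg adjustment over 5 such tests, the smallest possible p being 0.1).

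Levels are minus the authors' dCt, where dCt is Ct less the sample's own number. A step of 1 on this log2 scale is a doubling of microRNA if each cycle doubles the product. That efficiency was not measured, and all folds given here assume it. miR-222 stood at 4.55 in DC1, 1.43 in DC2 and -3.13 in DC3. The controls stood at -1.79 (B1), -2.17 (B2) and -2.01 (B3). DC1 and DC2 were above all controls and DC3 was below all of them. The mean was 0.95 ± 3.87 in DC-primed cells and -1.99 ± 0.19 in the controls (SD, n = 3 each).

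miR-221 stood at -0.05 in DC1, -1.54 in DC2 and -1.25 in DC3, and the controls at -1.54 (B1), -1.83 (B2) and -1.21 (B3). DC1 was higher than the rest, while DC2 and DC3 lay within the range of the controls. Its group means were -0.95 ± 0.79 and -1.52 ± 0.31 (SD, n = 3 each).

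**Figure D1:**
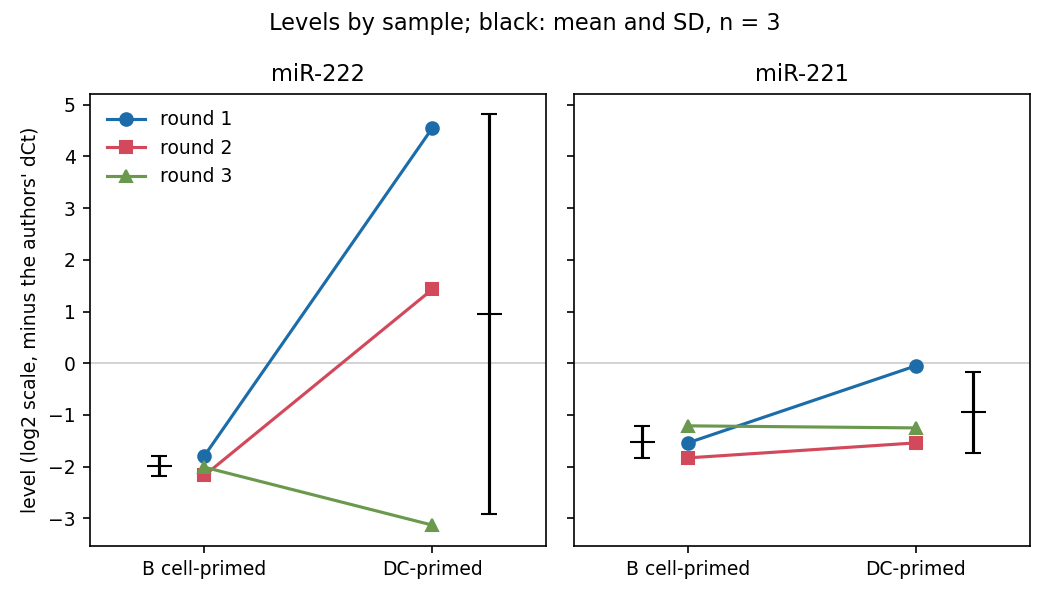
Level of miR-222 (left) and miR-221 (right) in each sample, as minus the authors' dCt (log2 scale); a line joins the samples of 1 round, and black marks give the group mean and SD (n = 3). miR-222 spans 7.69 units in the DC-primed and 0.38 in the B cell-primed samples, miR-221 1.49 and 0.62.

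The first question was whether the kind of priming cell goes with the level of either microRNA. The mean level of miR-222 was 2.94 ± 1.64 higher (limma's SE) in DC-primed cells, a 7.66-fold difference. Its 95% confidence interval, from -0.79 to 6.66, includes 0, and it did not pass the test (limma adjusted p = 0.707 over 274 tested assays, unadjusted p = 0.108). In size it was number 3 of the 274 differences, after miR-147 at 3.25 and miR-21 at 3.19. The mean level of miR-221 was 0.58 ± 0.68 higher, a 1.49-fold difference with an interval from -0.98 to 2.14, and did not pass either (adjusted p = 0.971). It was number 83 of the 274 by size, where the median of all was 0.07.

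Neither member was called, as was true of all assays: limma called 0 of 274 (0.0%) at an adjusted p under 0.05, with 24 at an unadjusted p under 0.05. The authors' deposited table gives a fold of 7.66 with a paired-test p of 0.31 for miR-222, and a fold of 1.49 with a p of 0.342 for miR-221. By fold, miR-222 was number 7 and miR-221 number 103 of its 345 assays, which include those that the Ct filter left out. Of the 345, 18 had a p under 0.05.

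The rounds did not point the same way. For miR-222 the DC-primed sample was 6.34 above its B cell-primed partner in round 1, an 80.9-fold difference. It was 3.60 above in round 2, or 12.1-fold, and 1.12 below in round 3, where the level was 2.18-fold higher in the B cell-primed sample. Among the 274 tested assays these differences ranked number 2, 1 and 217 from the top. Larger differences lay among assays that the Ct filter left out: in round 2 miR-223 stood at 1.23 in DC2 and -5.32 in B2. For miR-221 the differences were 1.49, 0.29 and -0.04, ranking number 47, 150 and 139. The member with the large differences in rounds 1 and 2 was thus miR-222, and the median over all tested assays in the 3 rounds was -0.27, 0.45 and -0.03.

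A sample's position can also be read from ranks, which need no scaling. From the highest level down, miR-222 ranked number 31 in DC1, 70 in DC2 and 238 in DC3 among 274, and the controls gave ranks of 190, 204.5 and 204. The ranks of miR-221 were 124.5, 186.5 and 160, with controls at 180, 185.5 and 170. For both assays the mean ranks differed by less than the spread (two-sided exact permutation p = 0.4, adjusted 0.667). Rank compares assays whose primers may amplify unequally, so only its change between samples is read here.

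Without DC3 the test of miR-222 turned. Its difference was then 4.98 ± 0.94 (limma's SE), with an interval from 2.88 to 7.08, and it was called (adjusted p = 0.0469) as 1 of 2 among 274 assays (0.73%). The other was miR-805, at -4.38. With the detection filter set on the 5 kept samples it was also called (difference 4.98 ± 0.96, adjusted p = 0.0288), as 1 of 5 among 319 assays (1.57%), together with miR-223 at 8.68, miR-146b at 6.92, miR-100 at 4.04 and miR-805. With both samples of round 3 left out, so that each group kept 2, miR-222 differed by 4.97 and was not called (adjusted p = 0.26). Without DC1 the difference fell to 1.13 (adjusted p = 0.69). miR-221 was not called in any of these fits, at 0.73 without DC3 and 0.13 without DC1. Of the alternatives run, those that gave a call were the ones that left out DC3, the sample with the latest Ct values, and kept its partner B3.

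**Figure D2:**
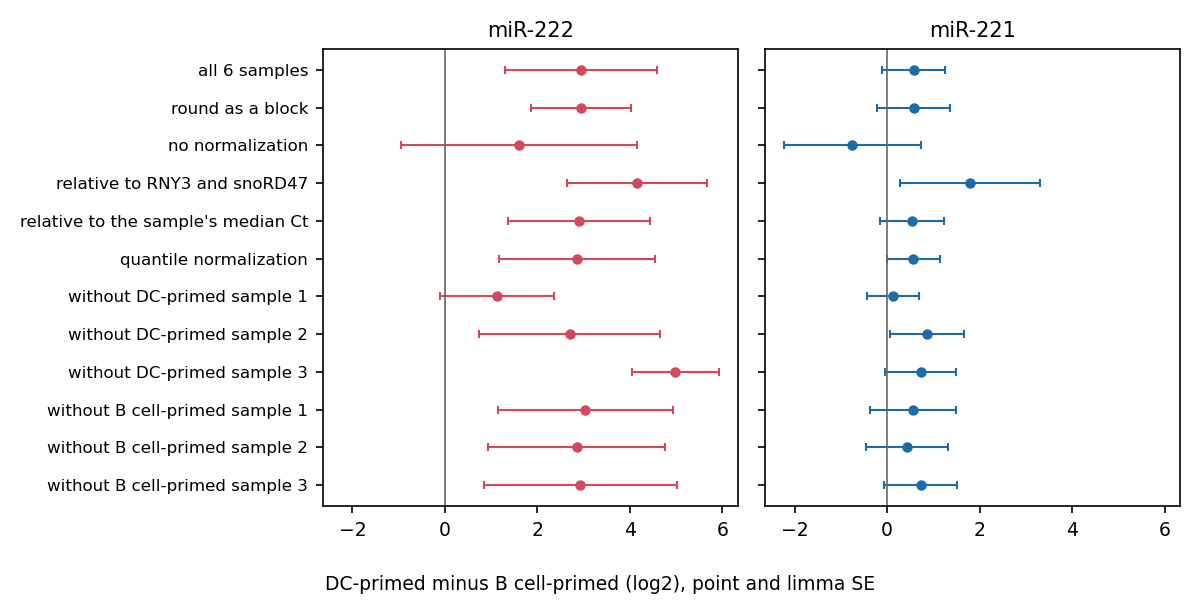
DC-primed minus B cell-primed difference (log2) of miR-222 and miR-221 under each scaling, with the round as a block and without each sample; points are limma estimates and bars limma's SE. miR-222 moves from 1.13 without DC1 to 4.98 without DC3, and miR-221 is below 0 only without normalization.

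The direction of the miR-221 difference depended on the scaling, and that of miR-222 did not. Without normalization the median of all 274 assays shifted to -1.26, miR-222 stood at 1.61 and miR-221 at -0.75. Scaled to RNY3 and snoRD47, small RNAs measured beside the microRNAs, the median shifted to 1.30, miR-222 stood at 4.16 and miR-221 at 1.80. Measured from the median of all assays, miR-222 was 2.78 to 2.86 higher and miR-221 0.49 to 0.50 higher over the 4 alternative scalings. For all of these but quantile normalization that agreement was fixed in advance, since they shift all assays of a sample alike. Only quantile normalization, at 2.78 and 0.49, could have changed it. On these control RNAs DC2 had the latest mean Ct of the 6 samples, for RNY3 (29.0, others 23.7 to 28.1) and for snoRD47 (26.1, others 19.6 to 24.3). DC3 came next for both, at 28.1 and 24.3. The wells of RNY3 within a sample had an SD of 1.59 to 2.80 cycles, so this scaling is itself uncertain, and DC2 is among the samples in which miR-222 was high.

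Within a sample the difference between the assays is free of any scaling. Taken as Ct of miR-221 minus Ct of miR-222, so that a higher value means more miR-222 per miR-221, it was 4.60 cycles in DC1, 2.97 in DC2 and -1.88 in DC3. The controls gave -0.25 (B1), -0.34 (B2) and -0.80 (B3). The control samples were close to each other, DC1 and DC2 were above all of them and DC3 below. Against the B cell-primed sample of its round the ratio was 28.8-fold and 9.92-fold higher in rounds 1 and 2, and 0.473 times as high in round 3.

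The group means of this log2 ratio were 1.90 ± 3.37 and -0.463 ± 0.295 (SD, n = 3 each), and their difference of 2.36 was smaller than the SD of the DC-primed samples (exact permutation p = 0.4, two-sided, adjusted 0.667). Added as a row to the table of tested assays, the ratio had an SE of 1.46 and an interval from -0.98 to 5.70 in limma (adjusted p = 0.741). Without DC3 the difference of the ratio was 4.25, and without DC1 it was 1.01. The pair's unequal behaviour was therefore seen in single samples, not as a group difference that passed a test.

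**Figure D3:**
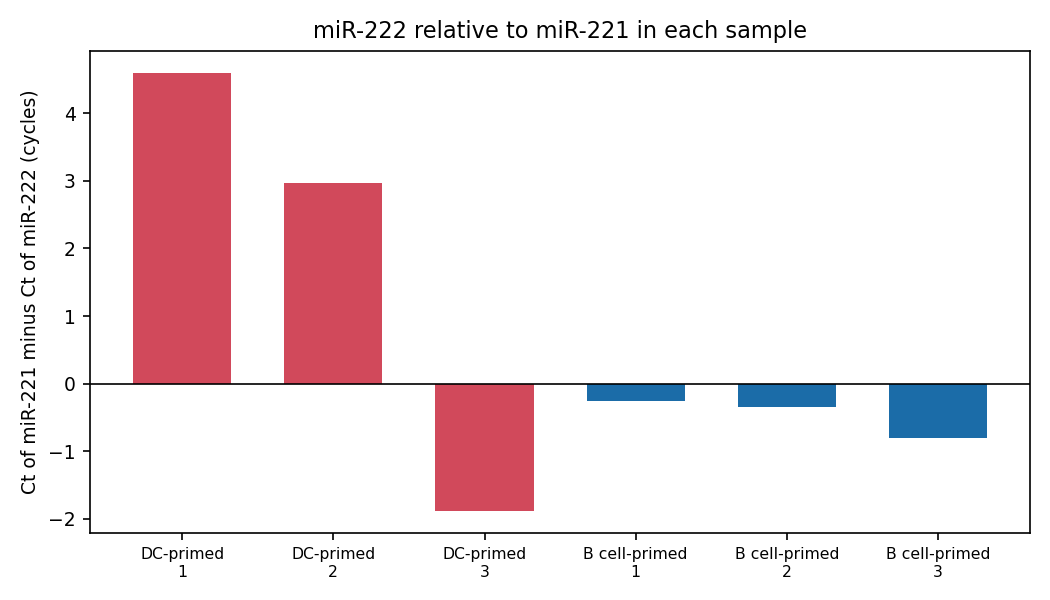
Ct of miR-221 minus Ct of miR-222 in each sample, in cycles (DC-primed red, B cell-primed blue); bars above 0 mean that miR-222 crossed the threshold first. DC1 and DC2 stand at 4.60 and 2.97, DC3 at -1.88, and the controls between -0.80 and -0.25.

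The spread of miR-222 was uneven between the groups. Over the DC-primed samples its SD of 3.87 was the second largest of 274 tested assays, after the human-named miR-424* at 4.65 and before miR-30b at 3.83. Assays that the Ct filter left out are not in this ranking. Several of those varied more, among them miR-146b (4.72, 4.1 and -8.31 in DC1 to DC3), miR-223 (5.36, 1.23 and -6.53) and miR-9 (1.46, -1.69 and -7.64). miR-106b varied more too but was lowest in DC1, at -16.33 (Ct 42.51), with 3.57 in DC2 and 2.71 in DC3. Over the B cell-primed samples the SD of miR-222, 0.19, was number 21 from the smallest of the 274. As a fold, its highest DC-primed level was 206 times the lowest, and its highest B cell-primed level 1.3 times the lowest. The SDs of miR-221, 0.79 and 0.31, were both under the medians over all assays, 1.20 for DC-primed samples and 0.63 for controls. DC1 was at least 1 unit above DC2, and DC2 at least 1 above DC3, for 31 of 274 assays (11.3%), miR-222 among them; this pattern was picked after the values were seen.

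**Figure D4:**
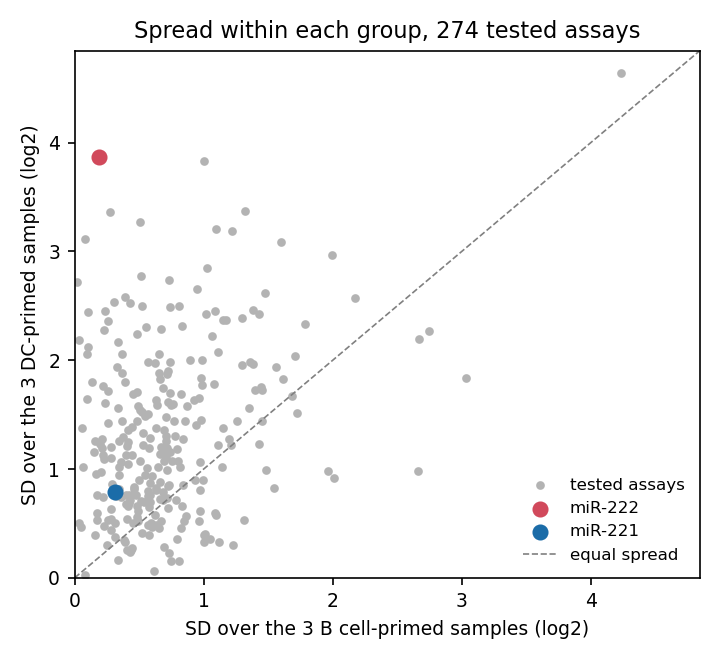
SD of the level over the 3 B cell-primed samples (x axis) and the 3 DC-primed samples (y axis), both log2, for each of 274 tested assays; the dashed line marks equal spread. miR-222 sits at 0.19 and 3.87, and miR-221 at 0.31 and 0.79.

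The 5 assays whose levels were most like those of miR-222 over the 6 samples, by Pearson's r, were miR-100 (0.99), miR-10a (0.98), miR-125a-5p (0.97), miR-150 (0.96) and miR-99b (0.95). miR-150 is abundant in resting lymphocytes, and the others belong to the miR-10, miR-99 and miR-125 families, known from haematopoietic stem and myeloid cells. These r values are a description over points that share a sample each, and all 5 assays had their highest level in DC1. miR-221 was number 29 in likeness to miR-222, with r of 0.74 and Spearman's rho of 0.31. Without DC1 and DC3, which lie farthest from the middle, r was 0.00 over the other 4, so it rests on those samples.

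miR-100 gives the pattern most plainly. Its level was 1.66 in DC1, -0.53 in DC2 and -3.74 in DC3, while the controls lay at -3.46, -3.50 and -3.48, a difference of 2.61. Like miR-222 it was above all controls in DC1 and DC2 and below them in DC3. miR-125a-5p stood at 4.20, 1.60 and -0.39 against 0.22, -0.88 and -0.19, with DC3 inside the range of the controls. miR-150 stood at 5.53, 4.76 and 3.32 against 3.44, 3.08 and 3.87, a flatter course on which DC3 again lay among the controls.

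The mature sequences of these neighbours in level, with the seed in capitals (RefSeq, GRCm38.p6), are shown because none of these 4 has the seed of miR-222, while miR-100 and miR-99b share a seed of their own.
miR-100-5p: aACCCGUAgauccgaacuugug
miR-10a-5p: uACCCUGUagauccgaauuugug
miR-99b-5p: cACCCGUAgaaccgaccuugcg
miR-125a-5p: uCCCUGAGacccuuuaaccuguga
miR-10a and miR-125a-5p each have another seed. The assays most like miR-221 were miR-139-5p (0.91), miR-147 (0.89), miR-22* (0.88), miR-200b (0.86) and miR-125a-5p (0.84).

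The summed level of the myeloid and dendritic markers moved with miR-222 across the samples, but not every marker did. The list held miR-223, abundant in myeloid cells, miR-146b and miR-147, induced by inflammatory signals, and miR-22, miR-99b and miR-125a-5p; miR-511 had no assay. Of these 6 assays 4 were tested, all 4 were higher in DC-primed cells under every scaling run, and none was called (0). They ran from miR-147 at 3.25 through miR-99b at 2.54 and miR-22 at 2.53 to miR-125a-5p at 2.08. The log2 of the summed level of all 6 was 7.39 in DC1, 4.66 in DC2 and 1.58 in DC3, with controls at 1.32, 1.79 and 0.82. DC1 and DC2 were above all controls and DC3 was among them, and the sum followed miR-222 with r of 0.97 and miR-221 with r of 0.74 over the 6 samples (0.99 and 0.76 over the 5 without DC3). Of its assays, miR-99b and miR-125a-5p are also among the 5 most like miR-222. So is miR-150 (r of 0.96), of the B cell and lymphoid lists, so this likeness was not particular to the myeloid list. No r is given for the sums of the other lists, and the B cell sum was also highest in DC1 (5.64) and DC2 (4.83). Without DC3 all 4 tested markers were again higher, and their median went from 2.53 to 3.57.

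Single markers took different courses. miR-147 stood at 3.89 in DC1, -0.77 in DC2 and -0.11 in DC3, all above the controls at -1.82, -2.25 and -2.68, whereas miR-222 in DC3 was below its controls. miR-22 stood at 5.99 in DC1, 0.81 in DC2 and 0.18 in DC3, with controls at -0.98, 1.20 and -0.84, so that only DC1 was above all of them. miR-223 stood at 5.36 in DC1, 1.23 in DC2 and -6.53 in DC3, and at -5.79, -5.32 and -5.04 in the controls. In DC3, where miR-222 was lowest, miR-223 and miR-146b were the 2 of 6 markers not below Ct 35; in the other 5 samples all 6 were. Their part in the miR-222 differences was not tested. In such bulk samples, fewer cells of a type and less RNA per cell cannot be told apart.

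**Figure D5:**
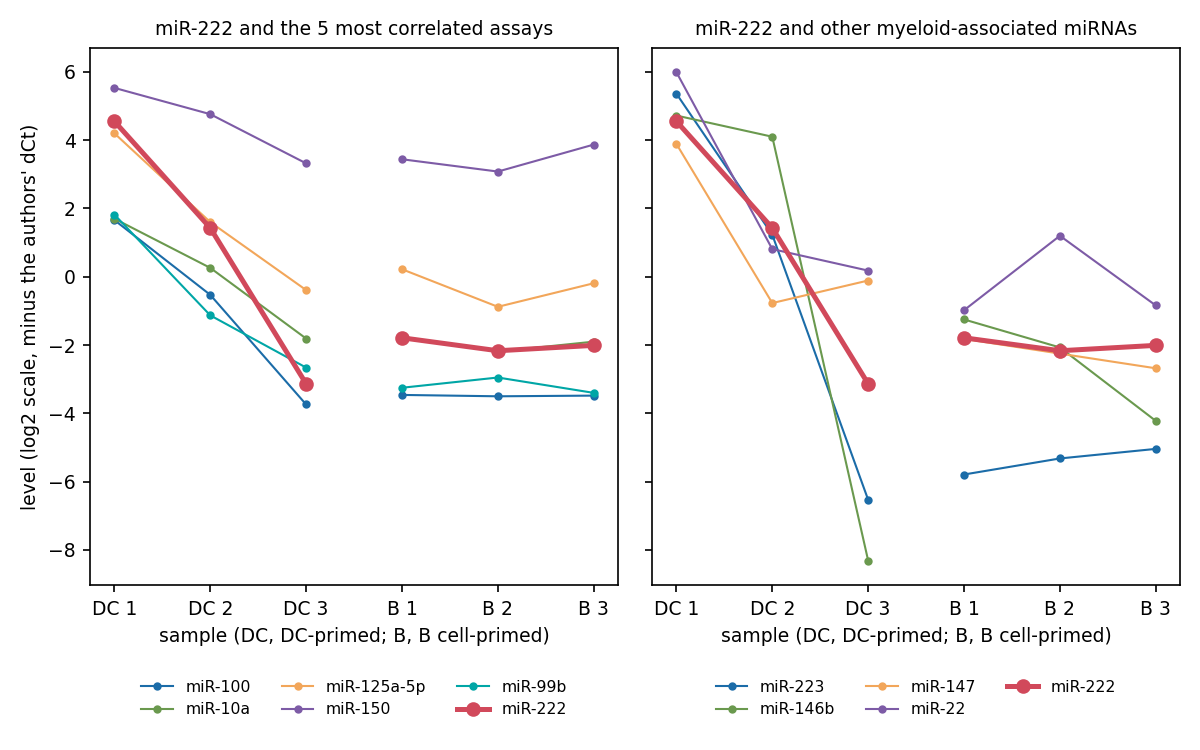
Levels (log2 scale, minus the authors' dCt) in each sample of miR-222 with its 5 most correlated assays (left) and with other myeloid-associated microRNAs (right); lines only join values of 1 assay within a group. miR-222 stands at 4.55 in DC1 and -3.13 in DC3, with controls between -2.17 and -1.79, and miR-223 at 5.36 and -6.53.

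The B cell list (miR-150, miR-148a, miR-125b-5p and miR-34a) had a median difference of 0.48, with 3 of 4 higher (4 of 4 relative to RNY3 and snoRD47, and 0 without normalization). Its summed level was 5.64 in DC1, 4.83 in DC2 and 4.25 in DC3, with controls at 3.67, 3.55 and 4.21, so the sum was not higher in the samples primed by B cells. Its largest differences were miR-150 at 1.07 and miR-34a at 0.80, and its smallest miR-125b-5p at -0.37 and miR-148a at 0.17. Of the stromal and endothelial list 3 of 5 assays were tested, with miR-143 at 0.74 and miR-126-5p and miR-199a-3p both at -0.09; miR-145 had no assay. The count of these 3 that were higher was 1 on the authors' scale, 3 relative to RNY3 and snoRD47 and 0 without normalization. Without DC3 the B cell list had 2 of 4 higher and a median of 0.01, and the stromal list 1 of 3 and a median of -0.13. The 4 tested lymphoid and haematopoietic markers had a median of 0.83, from miR-155 at 0.37 and miR-142-5p at 0.59 to miR-150 at 1.07 and miR-181a at 1.31; all 4 were higher on the authors' scale, 3 after quantile normalization and 0 without normalization. Without DC3 all 4 were higher, with a median of 1.97. None of these was called (0).

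Among microRNAs that respond to NF-kappaB, a pathway that also drives the pair, all 9 tested assays of 12 were higher in DC-primed cells on the authors' scale, and their median was 2.08. This list is not separate from the others: 3 of the 9 (miR-147, miR-99b and miR-125a-5p) are also among the 4 tested myeloid and dendritic markers, 2 are the pair, and 4 are in neither. Without DC3 all 9 were higher too, with a median of 2.26. The count was 9 relative to RNY3 and snoRD47, 8 after quantile normalization and 5 without normalization. All these counts keep the Ct filter over all 6 samples, which left out miR-301a, lower than its partner in rounds 2 and 3. Its levels were -0.23, -3.89 and -8.94 in DC1 to DC3, with controls at -3.48, 0.96 and -1.33. The filter also left out miR-9 and miR-146b, both above all controls in DC1 and DC2. In DC3 miR-146b, at -8.31, was below all controls, and miR-9, at -7.64, lay within their range. Of the tested assays, miR-147 and miR-21, raised by inflammatory and activating signals, had the largest differences, 3.25 and 3.19, with miR-222 next. miR-21 did not share the course of miR-222: its level was 10.13 in DC1, 7.37 in DC2 and 12.92 in DC3, with controls at 7.14, 6.37 and 7.34, so it was highest where miR-222 was lowest. The smallest were miR-155, an inducer of effector function, at 0.37 and miR-221 at 0.58, so the members of the pair stood apart in this list. None was called (0). The median of all 274 assays was 0.07, and they were split nearly evenly, with somewhat more of them higher than lower.

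The list of microRNAs raised by T cell activation was split much as all tested assays were. Of its 18 tested assays 10 were higher and 8 lower, with a median of 0.47. Its largest members were again miR-147 and miR-21, and its smallest were miR-18a at -3.62 and miR-19b at -2.92, both of the miR-17/miR-92a cluster that promotes lymphocyte growth. Both members of the pair were on the higher side of this list. Without DC3 8 of the 18 were higher and 10 lower, and the median turned to -0.76. Without normalization 3 of the 18 were higher, and none was called (0) on the authors' scale.

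A further list pooled microRNAs known to target any of Cdkn1a, Cdkn1b or Cdkn1c. It held the pair, miR-24 and microRNAs of the miR-17 and miR-25 families, which need not share the pair's own targets. Of 12 such assays 10 were tested, of which 3 were higher and 7 lower with DC priming. Their median was -1.20. The 3 higher ones were miR-222, miR-221 and miR-24, at 0.29. The smallest were miR-20a at -2.47 and miR-17 at -2.13, both known to lower Cdkn1a. Without DC3 3 were higher and 7 lower, with a median of -1.08. Relative to RNY3 and snoRD47 5 were higher and 5 lower, and without normalization 1 was higher, miR-222. None was called (0). Members of the miR-17 family differ by few bases and their assays may not separate them.

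Most other tested assays of the X chromosome were lower in DC-primed cells on the authors' scale. RefSeq symbols matched 233 of 243 mouse-named assays without a star (95.9%), and 22 had all hairpins on the X chromosome, the pair and 20 others. Of the 14 others tested 4 were higher and 10 lower, and their median was -0.33. The highest was miR-742 at 1.52, and the lowest were miR-374 at -2.72 and miR-363, of the cluster with miR-106a, at -2.02. None was called (0). The direction depended on the scaling, with 11 of the 14 higher relative to RNY3 and snoRD47 and 1 without normalization, and without DC3 6 were higher and 8 lower. miR-742 was at 6.47 in DC3, its highest level, unlike miR-222. miR-223, also on the X chromosome, was not tested because of its Ct in DC3.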

How the data were processed

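Per the labels' protocols, RNA was tailed with poly(A), reverse-transcribed from tagged oligo-dT and amplified with a primer per microRNA (SYBR Green). Raw Ct and the authors' dCt were in separate deposited tables, per the file headers, and dCt is a log2 scale: Ct minus 1 number per sample, said to be its geometric mean Ct. The file names state the reverse, and the values match the headers. The authors also deposited a fold (ratio, DC-primed over B cell-primed) and a paired-test p-value. The instrument and threshold rule were not given in the sources used here. For both members the tables matched (within 3.55e-15 cycles), with no filled-in value.

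Minus dCt was tested with limma 3.58.1 (R 4.3.3; no trend, no block, two-sided, Benjamini-Hochberg) over 274 assays with Ct below 35 in all 6 samples; 71 of 345 were left out. Other values were compared by exact permutation over samples (scipy 1.17.1). The members and lists were chosen with earlier results of these data known. The rule for other named microRNAs was the 5 most correlated per member and the 2 largest and smallest of each list. Named after their values were seen were miR-805, miR-424*, miR-30b, miR-146b, miR-223, miR-9, miR-106b and miR-301a. Round numbers come from the sample titles. Same-round deviations correlated at 0.16, 0.14 and 0.46, although DC1 correlated more with B2, at 0.33. Samples were paired by round in the by-round differences, the block fits and the sign-flip test. The main fit and the permutation tests were unpaired, because the labels do not say that a round marks a shared animal or day. The limma fit was checked on simulated data. Each Ct is 1 deposited value, so its own error is unknown.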

Additional observations from a re-analysis of the deposited data

How the results depend on the processing

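miR-222 stayed higher in DC-primed cells under all 26 alternatives that gave a value, from 1.13 to 4.98, and was called in 2, both without DC-primed sample 3 (DC3). Leaving out 1 sample gave 1.13 to 4.98 for miR-222, 0.13 to 0.87 for miR-221, 1.01 to 4.25 for the log2 ratio of the pair and 0 to 5 calls over all assays. miR-221 was lower only without normalization (-0.75), a setting that moved the median of all tested assays to -1.26. Measured from that median miR-221 was 0.5 higher, which had to match the main fit because the setting shifts all assays of a sample alike. With the round as a replicate block miR-222 was at 2.94 ± 1.08 (SE, limma adjusted p = 0.229), miR-221 at 0.58 (0.921) and the ratio at 2.36 (0.316; exact sign-flip p = 0.5, where 3 rounds allow no p below 0.25), and the block changed no call. Without rounds 1, 2 and 3 in turn miR-222 was at 1.24, 2.61 and 4.97, with the same values when the filter covered the 4 kept samples, which was chosen after seeing the data. A Ct limit of 32 left miR-222 out. Each group has 3 samples, each member 1 Ct per sample, and Ct 33.59 is late. The list values without DC3, and the X chromosome list without the pair, were also chosen after seeing the data.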
